A study of Mus musculus with 65 samples.

Results

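The miR-290 to miR-295 cluster is a group of microRNA genes on mouse chromosome 7, all read from the + strand. It was described here through 82 of the 5451088 windows, each 1 kb long and set every 500 bp, over which the authors deposited repli-ATAC-seq signal. The windows were taken by position: all windows that lie between 20 kb before the first hairpin and 20 kb after the last hairpin (chr7:3198626-3240841, mm10), together with the deposited peaks, the single annotated enhancer and the spike-in regions inside. The 6 members were Mir290a (chr7:3218626-3218708), Mir291a (chr7:3218919-3219000), Mir292 (chr7:3219189-3219270), Mir293 (chr7:3220343-3220422), Mir294 (chr7:3220641-3220724) and Mir295 (chr7:3220773-3220841). Upstream of the hairpins lay 38 windows, 6 windows overlapped the hairpins, and 38 lay downstream. Neighbouring windows share 500 bp and are not independent of each other. Mir291a and Mir292 shared the window nearest to them, as did Mir293 and Mir294.

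MicroRNAs are cut from hairpins in a longer transcript by Drosha with Dgcr8 in the nucleus and by Dicer in the cytoplasm, and then guide Argonaute proteins to mRNAs that match their seed. In mouse embryonic stem (ES) cells the miR-290 to miR-295 cluster is among the main sources of microRNA, its hairpins come from a common primary transcript, and its seed family is known for helping these cells pass from G1 into S phase. The locus is also known as an ES cell super-enhancer, a stretch of clustered sites bound by Pou5f1, Sox2 and Nanog. When a replication fork passes, accessible sites are covered by new nucleosomes and have to be opened again.

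Repli-ATAC-seq reads that opening: DNA made during an EdU pulse is cut at accessible sites by the Tn5 transposase and captured through the EdU. The cells were E14TG2a, an ES cell line from 129/Ola mice, kept on gelatin in medium with serum and LIF. Apart from the steady-state and total RNA polymerase II samples, which had no EdU, cells had a 10 min pulse of 20 uM EdU and were collected at once (nascent) or after a thymidine chase of up to 2 h. In the main experiment the cells had been given triptolide, DRB or the solvent DMSO for 2 h before the pulse, and nascent and 2 h chromatin was taken, each as an EdU-captured fraction and as the unbound rest, which holds bulk chromatin of the same cells. These 12 groups had 3 libraries each. Triptolide is known to block the XPB subunit of the transcription factor TFIIH, so that RNA polymerase II does not start, and DRB to block the kinase CDK9, so that the polymerase is not released into the gene body. The chase may or may not have held the drugs, and this and their doses were not given in the sources used here. A separate experiment without inhibitors added 100 EdU-labelled Drosophila S2 cells to nascent and 2 h samples (2 libraries each), and peak lists were deposited for nascent, 30 min, 1 h, 2 h and steady-state chromatin and for RNA polymerase II phosphorylated at serine 5 (S5P). The labels name no separate cultures, and p-values therefore cover only the spread among these libraries, which may be technical.

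The 11 mature microRNAs that RefSeq (GRCm38.p6) lists for these members have some seeds shared between members and some found in a single member. The 5′ arms of miR-291a, miR-294 and miR-295, each with a seed of its own among the members, are not printed. Outside the members, miR-291b-5p carries the seed of miR-291a-5p and miR-292b-5p that of miR-294-5p, both on chromosome 7. No 3′ arm was listed for miR-292. The seed, bases 2 to 8 from the 5′ end, is in capitals.
The 5′ arms of miR-290a, miR-292a and miR-293 share the seed CUCAAAC, which no other mature microRNA of the 1679 in that table carries:
miR-290a-5p: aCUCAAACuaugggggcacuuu
miR-292a-5p: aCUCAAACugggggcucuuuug
miR-293-5p: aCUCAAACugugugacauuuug
The 3′ arms of miR-291a, miR-294 and miR-295 share AAGUGCU, which miR-302b-3p and miR-302d-3p of the miR-302 cluster on chromosome 3 also carry:
miR-291a-3p: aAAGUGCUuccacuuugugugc
miR-294-3p: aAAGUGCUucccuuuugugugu
miR-295-3p: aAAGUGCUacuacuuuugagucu
The 3′ arms of miR-290a and miR-293 have other seeds:
miR-290a-3p: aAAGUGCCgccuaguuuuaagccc
miR-293-3p: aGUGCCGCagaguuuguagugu

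The stretch around Mir290a is shown because its accessibility at 2 h differed between triptolide and DRB. RefSeq places the start of D7Ertd143e, a non-coding transcript on the + strand at the locus, just after the Mir290a hairpin, so this annotated start cannot be that of a transcript holding miR-290a. The 300 bases from 250 before to 50 after that start (chr7:3218534-3218833, GRCm38.p6, + strand) hold the miR-290a hairpin, whose mature arms are in capitals:
D7Ertd143e promoter: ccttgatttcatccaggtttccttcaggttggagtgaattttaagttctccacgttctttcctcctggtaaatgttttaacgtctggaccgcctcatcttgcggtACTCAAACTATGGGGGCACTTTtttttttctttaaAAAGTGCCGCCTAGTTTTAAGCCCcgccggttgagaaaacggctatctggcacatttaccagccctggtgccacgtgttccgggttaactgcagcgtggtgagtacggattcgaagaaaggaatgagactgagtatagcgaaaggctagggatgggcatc
The E-box CACGTG, a palindrome and so the same on both strands, was found once in it, at chr7:3218745-3218750. The same motif was in 2349 of 32851 promoters of this length (7.15%), so a match is not rare, and it says nothing of binding. The deposited table of transcription start sites (TSSs) has 7 entries in the locus, at the start of each member hairpin and at chr7:3219482, and none upstream of Mir290a. The window just upstream (chr7:3217501-3218500), the highest within 5 kb before the first hairpin, was therefore followed as the upstream window.

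Depth set what could be seen. The EdU libraries held between 1.30 M and 5.55 M reads and the unbound libraries between 2.35 M and 14.4 M, so 1 RPM, the deposited read count scaled to the library's total, stood for only a few reads in an EdU library. Of the 82 windows, 81 passed the filter of a mean of at least 1 RPM in the EdU libraries; the window at chr7:3234001-3235000 averaged 0.686 RPM and was left out. In the unbound libraries 66 windows passed. Differences are log2 differences of RPM + 1, which understate the change of low windows, with the standard error of the limma fit, and p-values are adjusted over all windows tested (447351 in the EdU and 417097 in the unbound fraction). Windows other than those of the members, TSSs, enhancer and steady-state peaks and the 3 with the highest mean were chosen after their values were seen. As a check of the cell type, 8 of 9 ES cell marker genes had a steady-state peak at the TSS, but so did 4 of 4 fibroblast markers, 3 of 3 trophectoderm markers and 2 of 3 primitive endoderm markers with a TSS in the table; in the nascent list the counts were 8, 1, 1 and 1.

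The locus was already marked by peaks in nascent chromatin, and the cover grew with time. Inside it lay 13 nascent peaks, then 23, 15 and 21 peaks after 30 min, 1 h and 2 h, and 18 in steady-state chromatin. They covered 23.4%, 41.7%, 42.2%, 48.4% and 48.3% of its length. Each of the 6 hairpins was overlapped by a peak of every list, that of S5P included, though the nascent and 30 min peaks began inside the Mir290a hairpin. All 6 lay in the same steady-state peak and in the same S5P peak, so they are not separate results. No genome-wide share is given beside this count or the covered lengths. The steady-state peak over the hairpins was 6150 bp long (chr7:3217426-3223575), and the nascent peaks covered 74.0% of it in 4 pieces, those at 30 min 87.8% in 4 pieces, that at 1 h 100% in a single piece and those at 2 h 99.2%. A nascent peak touched 8 of the 18 steady-state peaks, and peaks after 30 min, 1 h and 2 h touched 13, 13 and 15 of them; over all steady-state peaks of the genome the shares were 20.6%, 37%, 46.1% and 57.8%. Peaks upstream that start at chr7:3201051, chr7:3206001 and chr7:3211476 were in every list, while one of 2025 bp that starts at chr7:3203476 had no nascent counterpart and was covered over 69.1% of its length at 30 min, 85.2% at 1 h and 97.5% at 2 h. The S5P list had 6 peaks in the locus, which covered 91.9% of the peak over the hairpins and touched 4 of the 18 steady-state peaks, against 4.4% of steady-state peaks in the genome. There was 1 list per group, made from combined replicates and without heights, so these counts have no error, and the number of peaks also moves with the depth of each list.

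**Figure D1:**
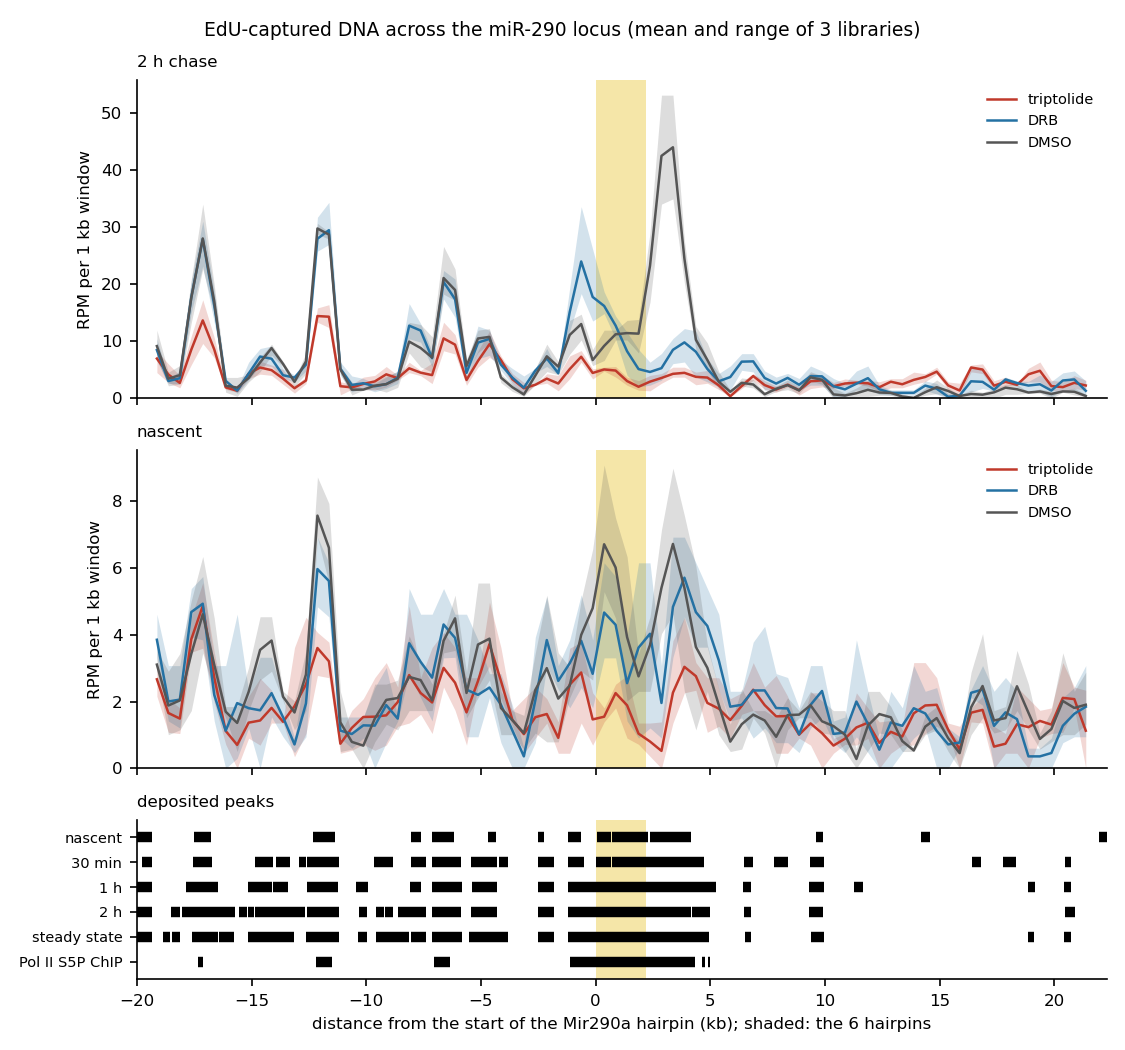
Mean RPM of the EdU-captured fraction (vertical axis) in each 1 kb window against its distance from the start of Mir290a (kb), for triptolide, DRB and DMSO at 2 h and in nascent chromatin; bands give the range of 3 libraries, the shaded stretch the hairpins and the bars at the bottom the deposited peaks. Under DMSO at 2 h the highest windows lay just after Mir295 and at 3 sites upstream; triptolide libraries were lower at all 4, while DRB libraries were lower after Mir295 and overlapped those of DMSO at the upstream sites.

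Between nascent and 2 h chromatin more windows of the locus were higher than lower in every treatment, but how many depended on the scaling. Under triptolide 31 of 81 windows were higher at 2 h and none lower (12.3% and 0.0487% of all windows tested). Under DRB 40 were higher and none lower (27.8% and 1.11%), and under DMSO 31 were higher and 2 lower (21.5% and 3.18%). The median difference of the locus windows was 0.81 under triptolide, 0.82 under DRB and 0.56 under DMSO, and that of all windows 0.43, 0.46 and 0.24. Upstream of the hairpins 17 of 38 windows were higher under triptolide, 28 under DRB and 22 under DMSO. Centred on the library median, 7 were higher under triptolide, 18 under DRB and 28 under DMSO, and scaled to background windows 61, 66 and 49. With no filter the triptolide count was 13, and without 2 h triptolide replicate 2 it was 17. In these bulk libraries a lower share of cells with an open site and less opening in each cell cannot be told apart.

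The window with the highest mean over all EdU libraries lay 12.1 kb upstream of Mir290a (chr7:3206001-3207000), at a steady-state peak. Under DMSO it held 30.7, 29.9 and 28.8 RPM at 2 h, against 6.92, 7.07 and 8.73 RPM in nascent chromatin, a difference of 1.85 ± 0.22 (adjusted p = 2.19e-12). All 2 h libraries lay far above all nascent ones. The gain was 1.75 under triptolide and 2.06 under DRB. The window 17.1 kb upstream (chr7:3201001-3202000) had 34, 27.3 and 22.7 RPM at 2 h under DMSO, against 3.46, 4.04 and 6.35 RPM in nascent chromatin. It gained 1.31 under triptolide, 2.29 under DRB and 2.38 ± 0.24 under DMSO. The third upstream site, 6.6 kb from Mir290a (chr7:3211501-3212500), gained 1.52 under triptolide, 2.02 under DRB and 2.18 ± 0.26 under DMSO. The annotated enhancer, centred 13034 bp before the first hairpin, was read only by the low window at its centre (chr7:3205001-3206000). The deposited 5 kb region around it (chr7:3203092-3208092) also holds the highest window, 12.1 kb upstream. The central window held 3.93, 4.11 and 2.9 RPM at 2 h under DRB, against 0.473, 0.77 and 0.907 RPM in nascent chromatin, a gain of 1.43 ± 0.36 (adjusted p = 0.000734). Under DMSO it held 2.15, 3.24 and 3.32 RPM at 2 h, against 1.15, 2.02 and 1.85 RPM in nascent chromatin, and the difference of 0.54 ± 0.36 did not pass (adjusted p = 0.268).

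At the hairpins the gains of Mir290a and Mir295 were unlike under DRB and DMSO, and similar under triptolide. Differences between windows were not tested. Under triptolide the window just after the cluster (chr7:3221001-3222000, centred 2.9 kb from the start of Mir290a) gained 1.68 over 2 h (adjusted p = 2.83e-05). Mir290a (chr7:3218001-3219000) gained 1.18 (adjusted p = 0.00439), Mir295 (chr7:3220501-3221500) 1.09 (adjusted p = 0.0146) and the upstream window 1.16 (adjusted p = 0.00165). These 3 calls rested on single libraries: Mir290a lost its call without nascent triptolide replicate 1 (0.94), Mir295 without nascent replicate 3 (0.90), 2 h replicate 1 (0.96) or 2 h replicate 2 (0.87), and the upstream window without nascent replicate 2 (0.84).
Under DRB the 5′ end gained. Mir290a was higher at 2 h by 2.26 ± 0.31 (adjusted p = 2.84e-10), the upstream window by 2.37 ± 0.28 (adjusted p = 2.42e-13), and the window of Mir291a and Mir292 (chr7:3218501-3219500) by 1.62 ± 0.29 (adjusted p = 1.26e-06). Mir295 differed by 0.25 ± 0.32 (adjusted p = 0.606), and by -0.32 when libraries were centred on their median. The window after the cluster gained 1.09 ± 0.31 (adjusted p = 0.00388); without nascent DRB replicate 3 or 2 h DRB replicate 1 it gained 0.81 and did not pass.
Under DMSO the gains of Mir295 and of the window after the cluster were larger than that of the upstream window. Mir293 with Mir294 lay within the standard errors of the upstream window, and no gain was called at Mir290a. The window of Mir295 held 16.9, 23.7 and 29 RPM at 2 h, against 2.31, 4.54 and 4.23 RPM in nascent chromatin, and gained 2.37 ± 0.32 (adjusted p = 4.76e-10). The window of Mir293 and Mir294 (chr7:3220001-3221000) gained 1.70 ± 0.34 (adjusted p = 2.41e-05). The window after the cluster gained 2.77 ± 0.31 (adjusted p = 6.79e-14), the 265th highest of 447351 windows, and the upstream window 1.5 ± 0.28 (adjusted p = 4.73e-06). The window of Mir290a differed by 0.46 (adjusted p = 0.285) and that of Mir291a and Mir292 by 0.40 (adjusted p = 0.317).

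**Figure D2:**
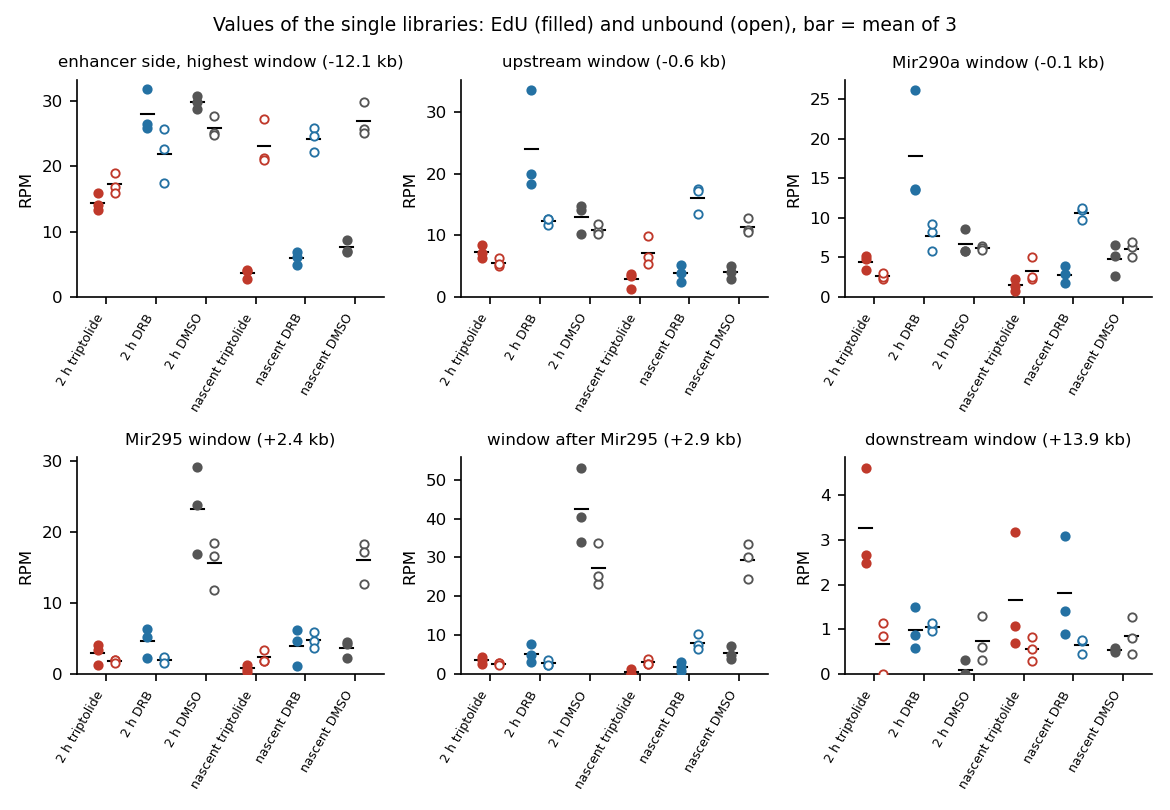
RPM in each EdU-captured (filled) and unbound (open) library for 6 windows of the locus under triptolide, DRB and DMSO, at 2 h and in nascent samples; bars are means of 3 libraries. The 3 EdU-captured DMSO libraries at 2 h lie above all inhibitor libraries in the window after the cluster (34 to 53.1 RPM), and the 3 EdU-captured DRB libraries at 2 h lie highest at Mir290a (13.5 to 26.1 RPM).

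Triptolide lowered the upstream sites and the hairpin windows other than that of Mir290a at 2 h. Against DMSO 14 of 81 windows were higher and 24 lower; of all windows tested 20.3% were higher and 15.5% lower. Centring on the library median gave 9 higher and 30 lower windows, and scaling to background windows 14 and 33. The median over the locus was -0.18, against 0.14 over all windows. The calls were arranged along the locus. Upstream 15 of 38 windows were lower and none higher. At the hairpins 5 of 6 were lower, all but that of Mir290a, and none higher. Downstream 14 of 37 were higher and 4 lower.
The window 12.1 kb upstream had 15.8, 13.3 and 14.1 RPM with triptolide, against 30.7, 29.9 and 28.8 RPM with DMSO, a difference of -1.0 ± 0.22 (adjusted p = 0.000217). The site 17.1 kb upstream also differed by -1.0 ± 0.24 (adjusted p = 0.000432), with 17.3, 9.62 and 14.1 RPM under triptolide and 34, 27.3 and 22.7 RPM under DMSO. The third upstream site fell by 0.94 (adjusted p = 0.00257). In none of the 3 did the groups overlap, though the share of all windows without overlap is not given.
The fall was deepest at the 3′ end of the cluster. Mir293 and Mir294 shared a window with 1.44, 3.1 and 1.6 RPM under triptolide, against 7.97, 12.2 and 13.8 RPM under DMSO (-2.03 ± 0.34, adjusted p = 6.8e-07). The window of Mir295 had 3.46, 4.03 and 1.33 RPM under triptolide and 16.9, 23.7 and 29 RPM under DMSO (-2.66 ± 0.32, adjusted p = 6.1e-12). The window after the cluster had 3.74, 4.35 and 2.66 RPM, against 34, 40.3 and 53.1 RPM, a difference of -3.24 ± 0.31 (adjusted p = 2.51e-18), the 80th lowest of 447351 windows. At the 5′ end the upstream window had 6.34, 8.38 and 7.18 RPM under triptolide, against 14.1, 14.7 and 10.2 RPM under DMSO (-0.75, adjusted p = 0.0251); it lost its call without DMSO replicate 1 or 2 or triptolide replicate 1 or 3, with differences between -0.74 and -0.66.
The 14 windows that were higher under triptolide were low, with group means between 2.13 and 5.42 RPM under triptolide and between 0.102 and 1.97 RPM under DMSO. The highest difference, at chr7:3232001-3233000, came from 4.61, 2.48 and 2.66 RPM under triptolide against 0.307, 0 and 0 RPM under DMSO (1.92, adjusted p = 1.37e-05). A count of 0 in those DMSO libraries allows up to 1.08 and 0.83 RPM, for counting error only.

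DRB lowered the 3′ end of the cluster at 2 h, and at the 5′ end only the window of Mir290a was called higher. Against DMSO 4 of 81 windows were higher and 5 lower (2.57% and 1.25% of all windows), or 2 and 5 after centring on the library median. The 4 higher windows were 1 of the hairpin windows and 3 downstream, and the 5 lower ones 2 of the hairpin windows and 3 downstream. Without DRB replicate 2 the total of 9 fell to 5. The locus median was 0.19, against 0.02 over all windows.
The window of Mir290a had 13.5, 26.1 and 13.6 RPM with DRB and 8.58, 5.75 and 5.81 RPM with DMSO, a difference of 1.24 ± 0.31 (adjusted p = 0.0061). Every DRB library lay above every DMSO library, but DRB replicate 2 stood apart, and the call was lost without it (0.94, adjusted p = 0.151) as well as without DMSO replicate 2 (1.15, adjusted p = 0.0564) or 3 (1.16, adjusted p = 0.0504). The upstream window had 18.4, 33.6 and 20 RPM under DRB and 14.1, 14.7 and 10.2 RPM under DMSO, which did not pass (0.80 ± 0.28, adjusted p = 0.0795). The window of Mir291a and Mir292 did not pass either (0.78 ± 0.29, adjusted p = 0.105), and limma-voom called it (0.85).
Mir295 had 5.24, 6.34 and 2.32 RPM under DRB, against 16.9, 23.7 and 29 RPM under DMSO (-2.15 ± 0.32, adjusted p = 2.24e-07). The window after the cluster had 7.86, 4.85 and 3.19 RPM under DRB, against 34, 40.3 and 53.1 RPM under DMSO (-2.83 ± 0.31, adjusted p = 6.11e-14), the 85th lowest of 447351. For Mir293 and Mir294 the difference was -1.13 ± 0.34 (adjusted p = 0.0328), with 4.81, 8.58 and 2.03 RPM under DRB and 7.97, 12.2 and 13.8 RPM under DMSO; it lost its call, with values between -1.16 and -0.69, without DMSO replicate 2 or 3 or DRB replicate 1 or 3. At the highest upstream window DRB gave 25.8, 31.7 and 26.4 RPM and DMSO 30.7, 29.9 and 28.8 RPM, a difference of -0.09 ± 0.22 (adjusted p = 0.889).

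**Figure D3:**
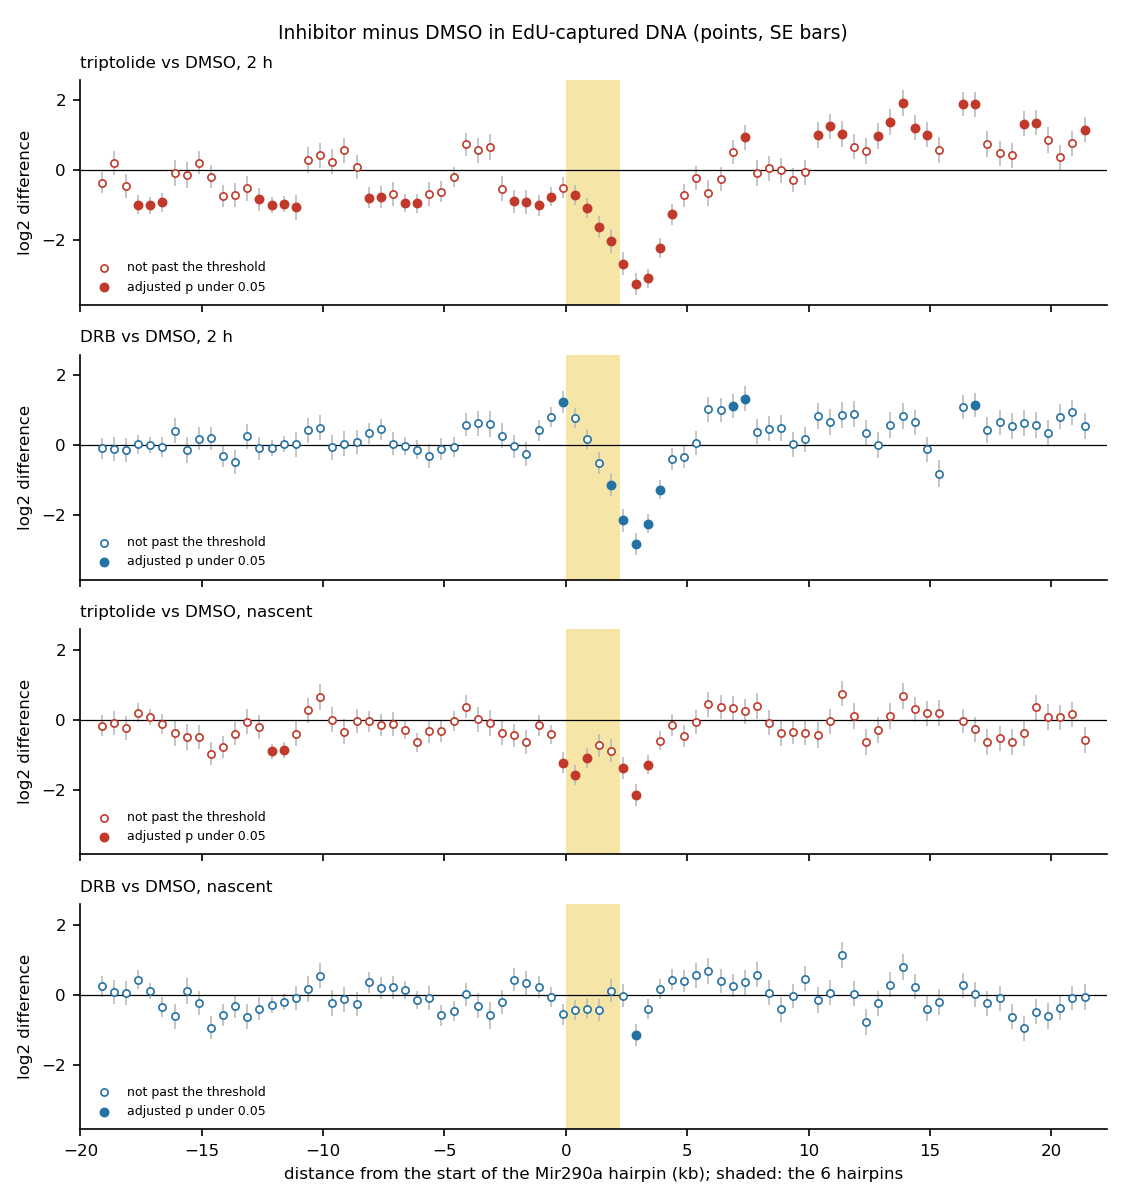
Log2 difference of RPM + 1 in the EdU-captured fraction (points, with standard errors), triptolide against DMSO and DRB against DMSO, for each tested window against its distance from the start of Mir290a (kb), at 2 h and in nascent chromatin; filled points passed adjusted p under 0.05. Both inhibitors reach their lowest values just after Mir295 at 2 h (-3.24 and -2.83), and at Mir290a DRB lies above 0 (1.24).

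Set against each other at 2 h, triptolide was lower than DRB in 21 of 81 windows and higher in 4 (6.59% and 8.8% of all windows). The median difference was -0.37 over the locus and 0.04 over all windows. Without 2 h DRB replicate 1 the total of 25 windows fell to 15, and without DRB replicate 2 to 16. Upstream 12 of 38 windows were lower and none higher. Triptolide was lower at the highest upstream window (-0.91, adjusted p = 0.00295), at the upstream window (-1.55, adjusted p = 3.34e-05), at Mir290a (-1.73 ± 0.31, adjusted p = 3.07e-05) and at Mir291a with Mir292 (-1.50, adjusted p = 0.000118), where it had 5.47, 4.97 and 4.79 RPM and DRB 14.9, 18.7 and 15.1 RPM. These windows did not overlap between the drugs, and here too the share of all windows without overlap is not given. At Mir290a DRB lay 1.24 above DMSO, and triptolide was not called lower than DMSO there. In nascent chromatin 0 of 81 windows were higher and 1 lower (0.114% and 0.0637% of all windows), against 1 and 14 at an unadjusted p under 0.05; limma-voom called 0, centring on the library median made 12 lower, and the count was 0 without DRB replicate 2 or any 1 of the triptolide libraries.

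In nascent chromatin triptolide lowered 8 of 81 windows and raised none (1.57% and 0.401% of all windows): 2 upstream, 4 at the hairpins and 2 downstream. The count was 5 without nascent DMSO replicate 2 or nascent triptolide replicate 1. The largest fall was again just after the cluster, with 1.39, 0 and 0.18 RPM under triptolide, against 4.04, 5.05 and 7.14 RPM under DMSO (-2.15 ± 0.31, adjusted p = 5.55e-07), the 17th lowest of all windows; the count of 0 allows up to 1.36 RPM. Mir291a and Mir292 shared a window with 1.39, 1.81 and 1.44 RPM under triptolide, against 5.77, 9.08 and 5.29 RPM under DMSO (-1.57 ± 0.29, adjusted p = 0.000144). Both windows were lower in every triptolide library than in any DMSO library. Mir290a differed by -1.22 ± 0.31 (adjusted p = 0.0135), Mir295 by -1.38 ± 0.32 (adjusted p = 0.00647) and the highest upstream window by -0.90 ± 0.22 (adjusted p = 0.0114). These calls rested on single libraries: Mir290a lost its call without DMSO replicate 1 (-1.14) or 2 (-1.0) or triptolide replicate 1 (-0.97), Mir295 without DMSO replicate 2 (-1.24) or triptolide replicate 3 (-1.19), and the upstream site without DMSO replicate 3 (-0.81) or triptolide replicate 1 (-0.77).
DRB lowered 1 window and raised none in nascent chromatin (0.802% and 0.0809% of all windows). It was again the window after the cluster, with 1.89, 3.08 and 0.907 RPM under DRB and 4.04, 5.05 and 7.14 RPM under DMSO (-1.15 ± 0.31, adjusted p = 0.0404). Its call was lost without DMSO replicate 2 (-1.18) or 3 (-0.97) or DRB replicate 1 (-1.17) or 3 (-0.87), limma-voom called 0 windows, and centring on the library median gave 1 higher and 0 lower windows.

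The change over 2 h was compared between treatments as a difference of differences. Triptolide minus DMSO passed in 4 windows upward and 2 downward (1.33% and 0.797% of all windows), or in 2 and 4 after centring on the library median and 4 and 8 after scaling to background windows; the total of 6 fell to 3 without nascent DMSO replicate 1 or 2 h triptolide replicate 3, and to 2 without 2 h DMSO replicate 3. DRB minus DMSO passed in 1 window upward and 3 downward (0.368% and 0.0608%), or 0 and 4 after centring. With a pseudocount of 0.25 neither drug had a call (limma), and limma-voom called 2 up and 2 down for triptolide and 0 for DRB. An unadjusted p under 0.05 was met by 15 windows upward and 11 downward for triptolide, and by 13 and 5 for DRB. The DRB total was 2 without nascent DMSO replicate 1, 2 h DMSO replicate 2 or 2 h DRB replicate 2 or 3, and 0 without 2 h DMSO replicate 3. The window that gained more under DRB was that of Mir290a (1.80 ± 0.44, adjusted p = 0.0254, between 1.51 and 1.73 without any of the 6 libraries that end the call), and those that gained less included Mir295 (-2.12 ± 0.46, adjusted p = 0.00885) and the window after the cluster (-1.68, which did not pass without any 1 of 9 libraries). Mir295 lost its call without 2 h DMSO replicate 3 (-1.95) or 2 h DRB replicate 3 (-1.78).

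Bulk chromatin of the same cells, the unbound fraction, showed the 3′ loss at both times. Under DMSO 0 of 66 windows differed between 2 h and nascent samples (limma, 0% of all windows higher and 0.00048% lower), while limma-voom called 0 and an unadjusted p under 0.05 was met by 1 higher and 1 lower window. Triptolide lowered 32 windows at 2 h and raised 2 (16.1% and 7.92% of all windows), and in nascent samples lowered 14 and raised none (3% and 3.85%). DRB lowered 13 and raised 2 at 2 h (4.81% and 6.43%), and lowered 7 and raised 7 in nascent samples (1.36% and 2.59%).
After the cluster the unbound libraries held 2.99, 2.77 and 2.39 RPM under triptolide at 2 h, 2.4, 3.74 and 2.3 RPM under DRB, and 23.1, 25.2 and 33.8 RPM under DMSO. The inhibitor libraries sat at similar low levels, far under every DMSO library. The differences were -2.92 ± 0.17 for triptolide (adjusted p = 1.05e-21) and -2.90 ± 0.17 for DRB (adjusted p = 5.36e-21). In nascent samples triptolide had 3.94, 2.7 and 2.65 RPM, DRB 7.47, 10.2 and 6.53 RPM and DMSO 24.4, 30.2 and 33.6 RPM, with differences of -2.89 (adjusted p = 2.2e-21) and -1.75 (adjusted p = 2.38e-11). Under DRB the same window was lower at 2 h than in nascent samples (-1.25 ± 0.17, adjusted p = 3e-05). Between nascent and 2 h samples 7 windows were lower and none higher under DRB (0.0997% and 0.1% of all windows), 6 of them downstream. Under triptolide 8 were lower and none higher (3.92% and 0.371%). Whether these changes over time differed from that under DMSO was not tested in the unbound fraction. Single libraries set both counts. The DRB count fell to 3 without nascent DRB replicate 1, and to 2 without nascent DRB replicate 2 or 2 h DRB replicate 3. The triptolide count fell to 2 without nascent triptolide replicate 1, to 5 without 2 h triptolide replicate 3, and to 0 without nascent or 2 h triptolide replicate 2.

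The members followed this order in bulk chromatin. Mir295 differed by -2.51 ± 0.19 under triptolide (adjusted p = 9.5e-17) and by -2.44 under DRB at 2 h, and by -2.35 and -1.57 (adjusted p = 1.77e-08) in nascent samples. Mir293 with Mir294 differed by -2.09 under triptolide and -1.58 under DRB at 2 h, and by -1.92 and -1.01 in nascent samples. At the 5′ end triptolide gave 2.3, 2.52 and 3.09 RPM at Mir290a at 2 h, DRB 5.84, 8.16 and 9.2 RPM and DMSO 6.48, 6.24 and 5.95 RPM, so that triptolide was lower than DMSO (-1.0 ± 0.19, adjusted p = 3.73e-05). In nascent samples DRB was higher there, with 9.67, 11 and 11.2 RPM, against 6.28, 5.1 and 6.96 RPM under DMSO (0.71 ± 0.19, adjusted p = 0.0136), without overlap, though the call was lost without DMSO replicate 2 (0.61), DRB replicate 2 (0.69) or DRB replicate 3 (0.68). The upstream window was lower under triptolide at both times (-0.85, adjusted p = 2.42e-05 at 2 h; -0.63, adjusted p = 0.00603 in nascent samples, and -0.46 with adjusted p = 0.12 without triptolide replicate 3), and under DRB differed by 0.46 in nascent samples (adjusted p = 0.0791). The highest upstream window fell by 0.56 under triptolide at 2 h (adjusted p = 0.000233), and the third upstream site by 0.82. A low window downstream (chr7:3225501-3226500) was raised by DRB in nascent samples, with 5.27, 2.43 and 2.12 RPM, against 0.448, 0.425 and 0.982 RPM under DMSO (1.34 ± 0.24, adjusted p = 0.000105).

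**Figure D4:**
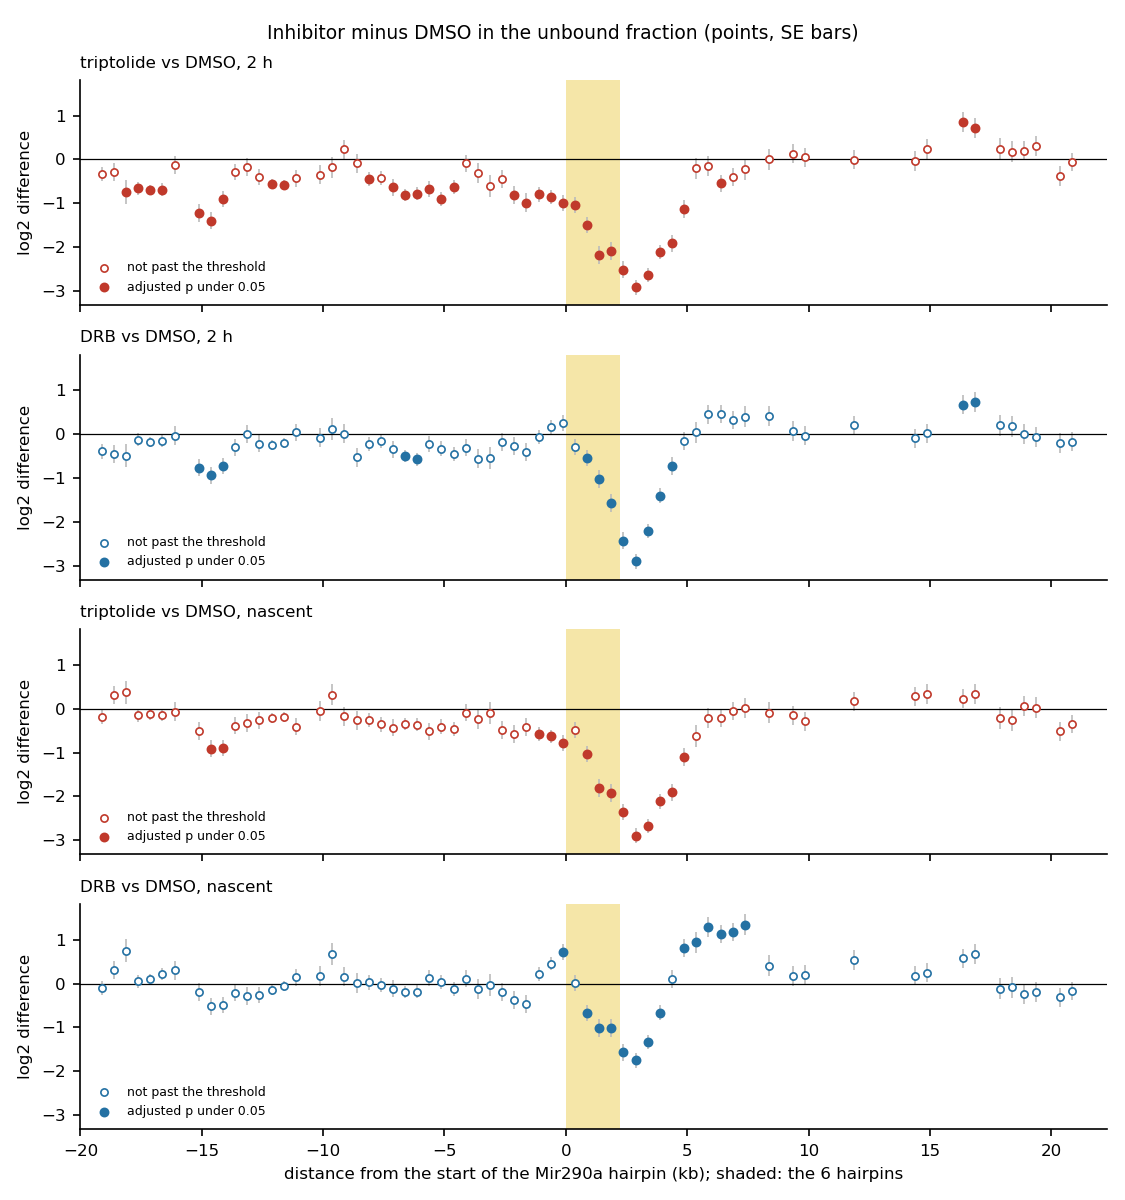
Log2 difference of RPM + 1 in the unbound fraction (points, with standard errors), triptolide against DMSO and DRB against DMSO, for each tested window against its distance from the start of Mir290a (kb), at 2 h and in nascent samples; filled points passed adjusted p under 0.05. The dip after Mir295 is present at both times, at -2.92 and -2.89 under triptolide and -2.90 and -1.75 under DRB.

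Summed over the 41 windows that do not overlap, the locus held 170 ± 6.14 RPM under triptolide, 271 ± 50.1 under DRB and 291 ± 15.8 under DMSO in the EdU fraction at 2 h (SD, n = 3 each). In nascent chromatin the sums were 72.7 ± 6.10, 94.9 ± 14.6 and 101 ± 3.30 RPM. In the unbound fraction they were 117 ± 7.25, 160 ± 9.83 and 229 ± 9.07 RPM at 2 h, and 147 ± 19.7, 215 ± 18.5 and 241 ± 16.7 RPM in nascent samples. Triptolide gave the lowest sum in each of these 4 settings.

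EdU-captured chromatin was also set against the unbound fraction of the same groups, in a fit that did not pair the fractions of the same cells. Under triptolide nascent chromatin was lower than bulk in 29 of 74 windows and higher in 2 (46% and 3.86% of all windows), or lower in 16 and higher in 17 after centring on the library median. Under DRB 36 were lower and 2 higher (48.3% and 2.54%), or 17 and 8 after centring, and under DMSO 32 were lower and 4 higher (39.2% and 4.69%), or 24 and 7 after centring. Under DRB Mir290a differed by -1.63 (adjusted p = 1.99e-07). Under DMSO the highest upstream window differed by -1.70 (adjusted p = 2.21e-13), Mir295 by -1.88, and the window after the cluster by -2.26 (adjusted p = 1.78e-11).
After 2 h under triptolide 21 windows were higher in EdU-captured than in bulk chromatin at 2 h and none lower (7.87% and 14.1%). The count was 11 with a pseudocount of 0.25, 6 with a mean of at least 3 RPM and 8 with no filter. Of the 21 windows 16 lay downstream of the hairpins, such as the low window at chr7:3232001-3233000 (1.39, adjusted p = 0.000526). The filter of this fit was a mean of at least 1 RPM over both fractions, which 74 windows passed, against 66 in the unbound libraries. The window at chr7:3232001-3233000 missed the filter in the unbound libraries and entered through its EdU reads, so the filter favoured a higher EdU value there. Under DRB 6 were higher and none lower (0.442% and 1.86%), a count between 0 and 13 when single DRB libraries were left out: 3, 3 and 13 without EdU replicates 1, 2 and 3, and 0, 1 and 2 without unbound replicates 1, 2 and 3. Under DMSO 0 of 74 windows differed between the fractions (limma; 7e-04% of all windows higher and 0.000466% lower), while limma-voom called 2 higher and an unadjusted p under 0.05 was met by 13 higher and 2 lower windows. The window after the cluster then differed by 0.61 (adjusted p = 0.574) and the highest upstream window by 0.20 (adjusted p = 0.858).
The inhibitor effect itself differed between the fractions in few windows. For triptolide 2 windows were higher at 2 h and 3 in nascent chromatin, none lower. Of all windows 0.896% were higher and 1.91% lower at 2 h, and 0.194% higher and 0.963% lower in nascent chromatin. The 2 h count was 1 without EdU triptolide replicate 2, unbound triptolide replicate 1 or 2 or any 1 of the unbound DMSO replicates, and the nascent count 0 without EdU DMSO replicate 1 or unbound DMSO replicate 2 and 1 without EdU triptolide replicate 1 or unbound triptolide replicate 3. For DRB 0 windows passed at either time (limma; 0% of all windows at 2 h, 0.0259% higher and 0.286% lower in nascent chromatin), and limma-voom called 0; an unadjusted p under 0.05 was met by 12 higher and 0 lower windows at 2 h and by 5 and 5 in nascent chromatin. There 1 passed without EdU DMSO replicate 3 and 2 without EdU DRB replicate 3.

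The experiment with added S2 cells gave the same direction over time without inhibitors, in deposited log2 values over 5 kb regions of unstated scaling. The region around the start of Mir290a (chr7:3216126-3221126) had 8.81 and 8.79 at 2 h, against 6.50 and 7.20 in nascent chromatin (difference 1.95, adjusted p = 0.00686). That of Mir295 (chr7:3218273-3223273) had 9.54 and 9.52 at 2 h, against 6.39 and 7.46 (2.60, adjusted p = 0.000751), and that of the enhancer (chr7:3203092-3208092) 8.81 and 8.83, against 5.98 and 7.33 (2.17, adjusted p = 0.000207). The groups did not overlap, and the nascent libraries differed from each other more than the 2 h libraries did. The 7 TSS regions overlap one another and differed by 1.95 to 2.66. Over all regions 30.1% of TSS regions were higher and 1.35% lower, with a median of 0.79, and 60.3% of enhancer regions were higher and 0.353% lower, with a median of 1.42. These balances depended on the fit: centred on the library median, 8228 of 30618 TSS regions were higher and 6151 lower (median -0.02), and 2026 of 8788 enhancer regions higher and 1751 lower (median 0.01). With no filter 35 TSS regions were higher, and with the replicate number as a block 670. Centred, the difference was 1.14 at Mir290a, 1.79 at Mir295 and 0.76 at the enhancer, all past the threshold, while the calls at Mir290a and Mir295 were lost with no filter (adjusted p = 0.125 and 0.144) and with the block (adjusted p = 0.184 and 0.118). Leaving out 1 library at a time gave differences of 1.60 to 2.30 at Mir290a, 2.07 to 3.14 at Mir295 and 1.5 to 2.84 at the enhancer, and all 3 calls ended without either of the 2 h libraries.

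**Figure D5:**
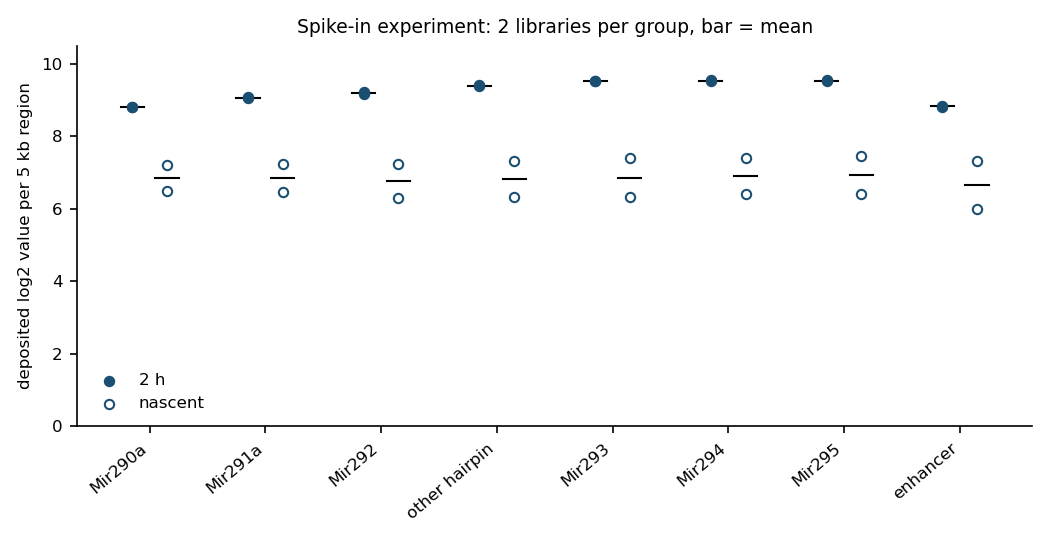
Deposited log2 value of the 5 kb regions of the locus in the experiment with added S2 cells, at 2 h and in nascent chromatin (2 libraries each, points, with bars for their means). Both 2 h values lie above both nascent values in every region, as in the Mir295 region (9.54 and 9.52, against 6.39 and 7.46).

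Genes around the pathway were read at their TSS windows in the EdU fraction. Of 15810 TSS windows tested, 49.5% were lower and 3.4% higher under triptolide at 2 h, with a median of -0.81. Of 13 genes of microRNA biogenesis 11 were lower and none higher (median -1.40), among them Dgcr8, the partner of Drosha (-1.89, adjusted p = 3.53e-07), Tnrc6b, which joins Argonaute to the silencing machinery (-1.92), Xpo5, the exporter of precursor hairpins (-1.71), and Drosha itself (-1.41). Of 16 transcription factors and cofactors reported at the locus 8 were lower and none higher (median -0.73), including Smad3 (-1.93), Stat3 (-1.39), Ctcf (-1.35) and Sox2 (-1.0). Of 14 reported targets of the cluster 6 were lower and none higher (median -0.68), including Akt1 (-1.45), Rock2 (-1.28) and Casp2 (-1.01). In nascent chromatin triptolide lowered 4, 3 and 1 of these genes, against 11.2% of all TSS windows. DRB lowered 1, 1 and 0 of them at 2 h and 2, 1 and 1 in nascent chromatin, against 2.63% and 3.11%.
Between nascent and 2 h chromatin 2 of 13 biogenesis genes were higher at 2 h under triptolide, 9 under DRB and 9 under DMSO. Of the 16 regulators 7, 12 and 10 were higher in the same order, and of the 14 targets 3, 13 and 6. Of all TSS windows 23.6% were higher under triptolide, 58.9% under DRB and 51.7% under DMSO. AU018091 and Myadm, which lie within 100 kb of the members but outside the locus, differed from DMSO by -0.03 and 0.01 under triptolide at 2 h, neither past the threshold, and both were higher at 2 h than in nascent chromatin under DMSO (1.03 and 1.07).

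Of 10 windows with other microRNA genes or their hosts 2 were lower and none higher under triptolide at 2 h (median -0.13), against 49.5% and 3.4% of all TSS windows. Over 2 h 3 were higher under triptolide, 5 under DRB and 1 under DMSO, against 23.6%, 58.9% and 51.7% of all TSS windows. The miR-302 cluster on chromosome 3, which holds the miR-302b and miR-302d named above for their seed, shared a single TSS window. It had 5.18, 4.66 and 4.25 RPM under triptolide at 2 h, 10.0, 6.72 and 5.80 RPM under DRB and 12.3, 14.7 and 8.57 RPM under DMSO. The triptolide libraries lay under all DMSO libraries, with a difference of -1.15 (adjusted p = 0.00335), and under DMSO the window gained 2.2 over 2 h (adjusted p = 8.31e-09).
Over the 12 group means of the inhibitor experiment the TSS windows most like the upstream window, of 15029 compared, were a window on chromosome 19 shared by LOC115489078, LOC115489084 and Slc3a2, a subunit of amino acid transporters (Pearson r = 0.978), followed by those of Kdm5b, a histone demethylase, and H4c6, a histone H4 gene with near-identical copies (0.967 each). These means share libraries and depth, so the likeness is a description.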

How the data were processed

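Per the submitters' processing notes, reads were handled with Trim Galore 0.4.2 and Bowtie2 2.2.6.2 on mm10 (peak caller not given in the sources used here). In the peak lists replicates had been combined. The deposited inhibitor tables hold log2(RPM + 1) per 1 kb window as the authors computed it. The log2 was undone to give RPM. In each library 100% of the low non-zero values, on which the size of 1 read was fitted, came out as whole numbers of reads, with a tolerance of 0.1 read. Higher values were not checked in this way. The spike-in tables hold deposited log2 values per 5 kb region, and the deposited peak lists only positions, 1 list per group. Intervals and limits from a count of 0 cover counting error only.

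Windows with a mean of at least 1 RPM in the fraction were fitted with limma 3.58.1 in R 4.3.3 (moderated test with a trend, all groups of a fraction in 1 fit, no covariates), with Benjamini-Hochberg adjustment over all tested windows of a comparison and a threshold of 0.05. EdU-captured and unbound libraries were fitted together for their comparison, as independent libraries, though both fractions come from the same cells. Spike-in regions above 0 in at least 2 libraries were fitted in the same way. The procedure was tested on simulated data. No TSS of the table lay before Mir290a, so the window with the highest mean within 5 kb before it stood for the promoter. Named were the windows nearest to the members, TSSs, enhancer and steady-state peaks of the locus, the 3 highest in the mean, and at most 4 passing genes a list; other windows were chosen after their values were seen. The members and gene lists were chosen with earlier results of these data known. Some neighbouring genes are not reported here. Alternatives were a pseudocount of 0.25, no filter, a mean of at least 3 RPM, fewer windows tested, centring on the library median, scaling to 3992109 background windows at least 1000 bp from any peak, limma-voom on the recovered reads, fitting only the groups compared, the replicate number as a block, and leaving out each library.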

Additional observations from a re-analysis of the deposited data

Results flagged for a closer look

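These windows had an inhibitor effect that differed between times or between fractions by an interaction term in the limma fit. The neighbouring ones share 500 bp. For the change over 2 h a pseudocount of 0.25 left 0 calls for either drug, and limma-voom left 0 for DRB and 4 for triptolide, so these differences depend on the fit.

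The change over 2 h in EdU-captured chromatin differed under DRB from that under DMSO in 4 windows: by 1.80 at chr7:3218001-3219000 (Mir290a), by -2.12 at chr7:3220501-3221500 (Mir295), by -1.68 at chr7:3221001-3222000 and by -1.84 at chr7:3221501-3222500. At chr7:3221001-3222000 the value lay between -1.82 and -1.41, and did not pass, without any 1 of 9 libraries. The change under triptolide differed from that under DMSO in 6 windows. It was smaller by 1.80 at chr7:3221501-3222500 (-1.80) and by 1.62 at chr7:3222001-3223000 (-1.62), and larger in 4 low windows far downstream: by 1.94 at chr7:3234501-3235500, by 2.16 at chr7:3235001-3236000, by 1.71 at chr7:3237001-3238000 and by 1.74 at chr7:3239501-3240500.

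The effect of triptolide against DMSO was higher in EdU-captured than in unbound chromatin at 2 h by 1.45 at chr7:3203001-3204000 and by 2.02 at chr7:3232001-3233000. The window at chr7:3232001-3233000 missed the filter of 1 RPM in the unbound libraries. It also had the highest triptolide difference of the locus at 2 h in the EdU fraction, so the value of 2.02 is not a separate result. In nascent chromatin the effect of triptolide was higher in the EdU-captured fraction by 1.39 at chr7:3221501-3222500, by 1.52 at chr7:3222001-3223000 and by 1.76 at chr7:3222501-3223500. In this stretch nascent EdU-captured DMSO libraries were already low: at chr7:3221501-3222500 they held 4.61, 6.56 and 8.99 RPM, and the unbound DMSO libraries 28.1, 34.5 and 38.1 RPM.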

How the results depend on the processing

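The 75 log2 differences of named windows were recomputed under 1127 alternatives in all, of which 1040 kept direction and side of the threshold, 78 lost the call, 7 gained one and 2 changed sign. Low reads limit the locus: an EdU library holds a few reads for each RPM. The causes of these changes were not tested.

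Counts of windows in EdU-captured chromatin moved as follows. For 2 h against nascent under triptolide (31) the count was 13 with no filter, 7 centred on the library median, 61 scaled to background windows and 17 to 25 without single libraries, and under DRB (40) it was 19 centred and 66 background-scaled. For triptolide against DMSO at 2 h (38) it was 25 with a mean of at least 3 RPM and 24 with no filter, and in nascent chromatin (8) 5 by limma-voom and 5 to 8 without single libraries. For DRB at 2 h (9) it was 4 with a pseudocount of 0.25, 5 with no filter, 14 with only the groups compared and 5 to 11 without single libraries; for DRB in nascent chromatin (1) it was 0 with the pseudocount, no filter, limma-voom or only the groups compared, and 0 to 1 without single libraries. For triptolide against DRB at 2 h (25) it was 14 with the pseudocount, 15 with no filter and 15 to 24 without single libraries; in nascent chromatin (1) it was 2 with a mean of at least 3 RPM, 0 with no filter, 2 with only TSS, enhancer and locus windows, 12 centred, 0 background-scaled, 0 by limma-voom, 0 with only the groups compared and 0 to 3 without single libraries. For the change over 2 h of triptolide minus DMSO (6) it was 0 with the pseudocount, 2 with at least 3 RPM, 2 with no filter, 12 background-scaled and 2 to 7 without single libraries; for DRB minus DMSO (4) it was 0 with the pseudocount, 1 with no filter, 1 with only TSS, enhancer and locus windows, 0 by limma-voom and 0 to 4 without single libraries.

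In the unbound fraction the count for 2 h against nascent under triptolide (8) was 4 with no filter, 3 centred, 18 background-scaled, 5 with only the groups compared and 0 to 8 without single libraries; under DRB (7) it was 4 with the pseudocount, 3 with no filter and 2 to 8 without single libraries; for DRB against DMSO in nascent samples (14) it was 9 with at least 3 RPM. For EdU against unbound the count under triptolide at 2 h (21) was 11 with the pseudocount, 6 with at least 3 RPM and 8 with no filter; under DRB at 2 h (6) 1 with the pseudocount, 0 with no filter, 13 by limma-voom and 0 to 13 without single libraries; under DRB in nascent chromatin (38) 25 centred and 62 background-scaled; and under DMSO at 2 h (0) 2 by limma-voom. For the triptolide effect between fractions it was 1 with the pseudocount, 0 with no filter and 1 to 2 without single libraries at 2 h (2), and 0 with no filter and 0 to 3 without single libraries in nascent chromatin (3); for that of DRB in nascent chromatin (0) it was 1 with at least 3 RPM and 0 to 2 without single libraries.

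Among single windows, Mir295 over 2 h under DRB (0.25) turned to -0.32 when centred, and ranged from -0.26 to 0.59 without single libraries. The upstream window over 2 h under triptolide (1.16) was 0.79 and not called when centred (0.84 to 1.35 without single libraries); under triptolide at 2 h (-0.75) it was -0.81 with the pseudocount and -0.75 with no filter, neither called (-0.90 to -0.66); under DRB at 2 h (0.80) it was called by limma-voom (0.86) and with only the groups compared (0.80); under DRB in nascent chromatin (-0.07) it was 0.24 when centred (-0.27 to 0.16). Between fractions under DRB at 2 h (0.85) it was 0.89 with the pseudocount and 0.85 with no filter, neither called (0.60 to 1.01). In the unbound fraction it was called over 2 h under triptolide when background-scaled (-0.49, main -0.28), and under DRB in nascent samples (0.46) when centred (0.49) and by limma-voom (0.57); without single libraries it ranged from -0.85 to -0.46 under triptolide in nascent samples and from -0.11 to 0.022 over 2 h under DMSO. The spike-in differences at Mir290a (1.95) and Mir295 (2.60) were not called with no filter (1.95 and 2.60) and ranged from 1.60 to 2.30 and from 2.07 to 3.14 without single libraries, and that at the enhancer from 1.5 to 2.84. The half-of-each overlap left 4 of the 8 steady-state peaks with a nascent peak. Scaled to background windows, the EdU sums were 194 RPM under triptolide, 340 under DRB and 412 under DMSO at 2 h and 59.8, 75.0 and 89.4 in nascent chromatin, and the unbound sums 101 under triptolide and 243 under DMSO at 2 h and 263 under DMSO in nascent samples.

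Replicate numbers did not meet the bar for pairing, a correlation over 0.1 in every pair: same-numbered EdU libraries correlated between -0.017 and 0.057 in their deviations from group means (0 of 45 pairs over 0.1), and unbound libraries between -0.025 and 0.168 (20 of 45), so that some unbound libraries of 1 number did deviate together. Pairs between the EdU-captured and unbound fractions of the same cells are not among these. With the replicate block the count for triptolide against DRB in nascent chromatin was 2, that for the DRB effect between fractions in nascent chromatin 1, the upstream window in the unbound fraction under DRB in nascent samples was called (0.46), and the spike-in regions of Mir290a (1.95) and Mir295 (2.60) were not.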
